A study of Mus musculus with 18 samples.

Results

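The genes described here are 32 genes of glycolysis and of the hypoxia-inducible factor HIF-1, out of 24421 genes listed in the deposited counts. They were chosen by name, but with earlier results of these data known. They comprised Hif1a and 2 of the prolyl hydroxylases that act on its product, 19 genes of the path from glucose entry to lactate export, and 10 further targets of HIF-1. All 32 passed the filter on low counts, which kept 13507 genes. RNA was sequenced from 4T1, a mouse mammary carcinoma cell line, and from its derivatives 4T1R1 and 4T1R2, each selected on its own for survival of 17-DMAG (alvespimycin), an inhibitor of the chaperone HSP90. Untreated and 17-DMAG-treated cells of each gave 6 groups of 3 libraries.

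All 6 groups were subconfluent cultures of wild-type cells of strain BALB/cfC3H grown in DMEM with fetal bovine serum. The treated groups received 1.5 µM 17-DMAG. The sample records give the exposure as 48 h and the series description as 2 h, and the counts were analysed without settling which applies. The sample records describe the selection as 3 rounds of 1.5 µM for 48 h, and the series description as 1 µg/ml for 24 h in several cycles with recovery in medium free of drug. No source calls the resistant populations clones, so they were taken as selected mixtures of cells.

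Glycolysis splits glucose into pyruvate through a fixed series of enzymes, and tumor cells commonly turn much of this pyruvate into lactate. HIF-1 is a pair of proteins, HIF-1α and ARNT, that raises transcription of most glycolytic genes when oxygen is low. In oxygenated cells the EGLN prolyl hydroxylases mark HIF-1α for VHL and the proteasome, and HIF-1α is also a client of HSP90, which protects it from degradation. RNA counts do not report the HIF-1α protein.

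Library totals ran from 23354461 to 55094630 counts. In treated 4T1 cells, replicates 1 and 2 agreed more closely than any other within-group pair (chi-square per gene 1.1, against 2.04 to 2.22 in the 17 remaining pairs). Their counts were therefore averaged to 1 sample, with n = 2 for this group, n = 3 for the others and 17 samples in the fit. The measure treats reads as independent, so it does not place either value against the sampling noise of reads counted in pairs. Library numbers of 4T1R1 form a series of their own. Whatever the numbering stands for thus cannot be told apart from the contrasts of 4T1R1 with 4T1 and with 4T1R2. Treatment was visible in every population, since 7 heat shock genes that follow HSP90 inhibition summed to 2490 to 2580 CPM (counts per 1000000 counts of a TMM-scaled library) in untreated and 13400 to 13700 in treated 4T1. The same sum went from 2020 to 2080 up to 7670 to 7930 CPM in 4T1R1, and from 2250 to 2350 up to 6040 to 6470 CPM in 4T1R2. Of 10 mammary epithelial markers 9 were tested and Krt5 had at most 3 counts in any library, and the list's sum was lower in untreated 4T1R1 (1690 to 1770 CPM) and 4T1R2 (1960 to 2000 CPM) than in 4T1 (2530 to 2560 CPM), with 7 of the 9 lower and 1 higher in 4T1R1 and 6 lower and 2 higher in 4T1R2 (Krt14 by 1.36 and Cdh1 by 0.28 on the log2 scale). Markers of leukocytes summed to at most 8.34 CPM, of fibroblasts to at most 33.7 CPM and of endothelium to at most 0.569 CPM in any library.

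The promoters of members that fell and members that rose after 17-DMAG are shown because HIF-1 is known to bind a short core in its targets. The 250 bases before the RefSeq start sites (build GRCm38.p6) were searched on both strands for ACGTG and GCGTG, the cores of the hypoxia response element, and each match is in capitals, written CACGT or CACGC where it lies on the opposite strand. A palindromic CACGTG counts once on each strand. The first 3 genes below fell in every population after 17-DMAG, and the last 2 rose.
Egln3 chr12:54203875-54204124, minus strand: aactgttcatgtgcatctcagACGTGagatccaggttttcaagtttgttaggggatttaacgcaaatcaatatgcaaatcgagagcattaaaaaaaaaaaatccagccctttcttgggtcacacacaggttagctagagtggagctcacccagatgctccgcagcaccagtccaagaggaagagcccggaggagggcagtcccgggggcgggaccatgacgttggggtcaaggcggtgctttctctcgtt
Kdm3a chr6:71632918-71633167, minus strand: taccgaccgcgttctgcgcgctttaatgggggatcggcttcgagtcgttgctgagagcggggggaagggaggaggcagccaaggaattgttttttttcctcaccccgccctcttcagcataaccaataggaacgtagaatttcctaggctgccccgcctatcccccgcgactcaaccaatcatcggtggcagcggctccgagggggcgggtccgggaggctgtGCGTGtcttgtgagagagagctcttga
Bnip3 chr7:138909507-138909756, minus strand: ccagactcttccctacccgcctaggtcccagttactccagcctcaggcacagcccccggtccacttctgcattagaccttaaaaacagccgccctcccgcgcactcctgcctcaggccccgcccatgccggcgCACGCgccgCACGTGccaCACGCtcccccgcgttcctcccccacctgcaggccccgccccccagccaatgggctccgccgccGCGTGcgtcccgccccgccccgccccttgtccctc
P4ha1 chr10:59323046-59323295, plus strand: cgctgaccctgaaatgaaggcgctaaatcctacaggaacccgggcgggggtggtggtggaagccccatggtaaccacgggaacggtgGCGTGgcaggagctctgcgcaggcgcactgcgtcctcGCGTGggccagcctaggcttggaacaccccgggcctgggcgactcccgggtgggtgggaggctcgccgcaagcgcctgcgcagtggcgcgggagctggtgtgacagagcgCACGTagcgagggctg
P4ha2 chr11:54100674-54100923, plus strand: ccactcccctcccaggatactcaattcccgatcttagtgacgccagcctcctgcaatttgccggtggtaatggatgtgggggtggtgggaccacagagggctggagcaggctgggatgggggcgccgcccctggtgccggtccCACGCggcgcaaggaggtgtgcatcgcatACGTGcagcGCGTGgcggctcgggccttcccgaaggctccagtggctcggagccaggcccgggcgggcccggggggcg
The Egln3 window held 1 core and the first of 3 Kdm3a windows held 1, while the other Kdm3a windows held 0. Hk1 and Pfkl also fell in every population and are not shown. The Hk1 windows held 0 and 3 cores and the Pfkl window 1. The Bnip3 window held 5 cores, and the P4ha1 and P4ha2 windows held 3 each. Members that fell and members that rose thus both had cores, and neither the number nor the kind of core separated these examples. Windows were found for 30 of the 32 members, and 28 of them (93.3%) had a core in at least 1 window, against 41.5% of all 27025 genes with such windows. Counted by window, 36 of 46 windows of members (78.3%) and 38.6% of all 32851 windows had a core. ACGTG was present in 63.3% of these members and 18.5% of all genes, and GCGTG in 66.7% and 30.9%. The heat shock motifs GAANNTTC or TTCNNGAA were present in 13.3% of members and 14.5% of all genes. A match describes letters in this window and is no evidence of binding. Since members were listed in part as HIF-1 targets, their share with a core is a description and not a test.

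Whether HSP90 inhibition changed these transcripts was asked in each population by comparing treated with untreated libraries. In 4T1 cells 5 members rose, 13 fell and 14 did not pass an adjusted p of 0.05 in edgeR's quasi-likelihood test with Benjamini-Hochberg adjustment, and the changes past 0.5 on the log2 scale were those of Egln3, Kdm3a, Bnip3, Ankrd37 and Aldoc, which fell, and of P4ha2, Vegfa and P4ha1, which rose. In 4T1R1 3 rose and 20 fell, and in 4T1R2 2 rose and 6 fell, or 3 without either untreated replicate 1 or treated replicate 2 of 4T1R2. Of all genes tested, 18.4% rose and 18% fell in 4T1, 13.9% rose and 14.3% fell in 4T1R1, and 6.17% rose and 4.35% fell in 4T1R2. The members had a median log2 fold change of -0.05 (4T1), -0.15 (4T1R1) and -0.07 (4T1R2), beside medians within 0.01 of 0 over all genes tested. These small shifts depended on scaling. With libraries scaled by total counts alone the median of all genes moved to -0.11 in 4T1, 0.02 in 4T1R1 and -0.05 in 4T1R2. Then 4 members rose and 18 fell in 4T1, 3 rose and 14 fell in 4T1R1, and 2 rose and 13 fell in 4T1R2. Shares of all genes called under total-count scaling were not counted, and the shares above belong to TMM scaling. Only P4ha1 and P4ha2 rose in all 3 populations, and only Egln3, Kdm3a, Bnip3, Hk1 and Pfkl fell in all 3. The share of all genes that did so was not counted, so these numbers do not set the members apart.

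**Figure D1:**
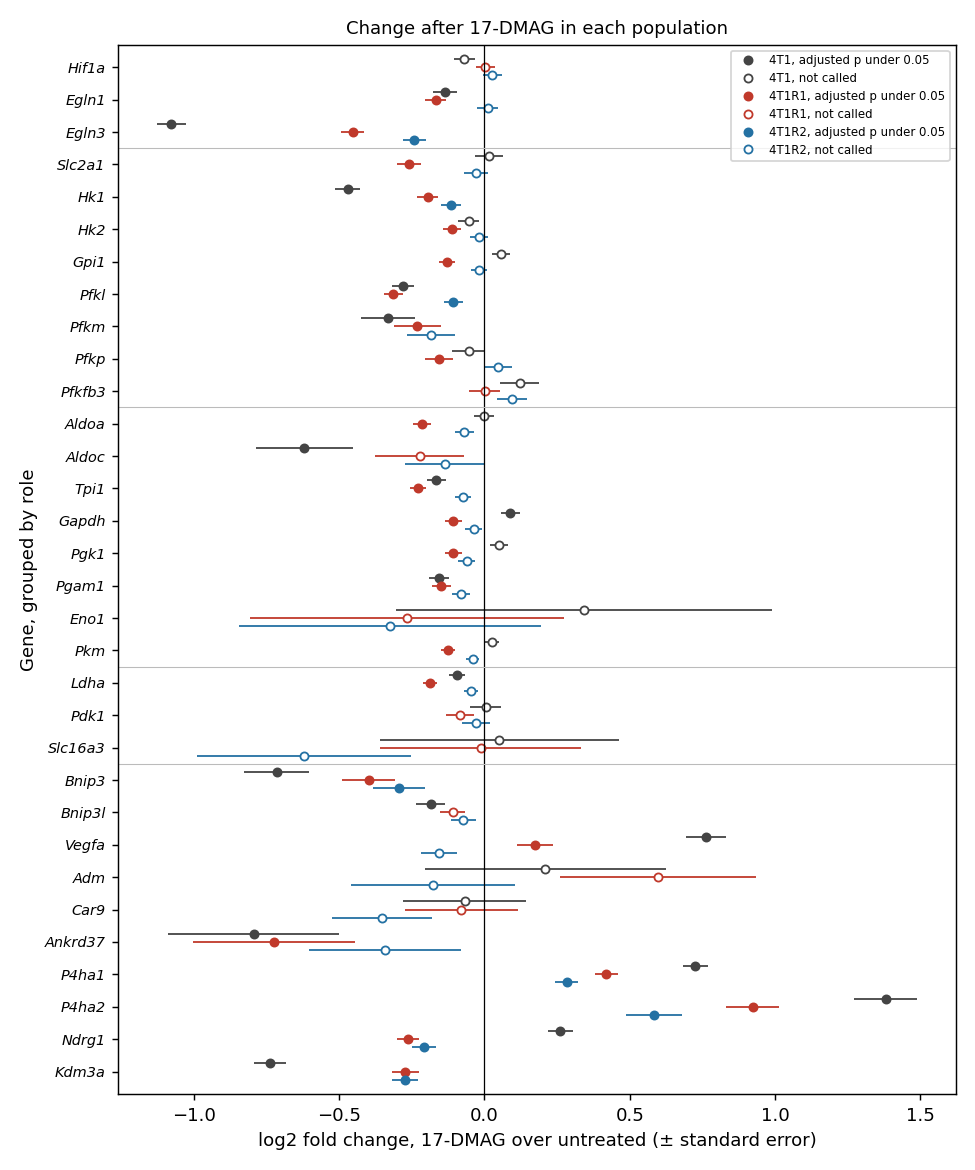
Log2 fold change after 17-DMAG of the 32 members in 4T1 (grey), 4T1R1 (red) and 4T1R2 (blue), with bars of 1 standard error and grey lines between roles. Filled points passed an adjusted p of 0.05. P4ha2, P4ha1 and Egln3 have the 4T1 point farthest from 0 and the 4T1R2 point nearest to it, while most glycolytic enzymes sit within 0.35 of 0. Eno1 and Slc16a3 have long bars because few reads were assigned to them.

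Hif1a (chromosome 12, 73901375-73947530), which encodes the oxygen-regulated subunit of HIF-1, did not pass the test in any comparison of 2 groups. Its level was 276, 255 and 257 CPM in untreated 4T1 and 249.9 and 251 CPM after 17-DMAG, an untreated mean of 263 ± 11.7 CPM (SD, n = 3). In 4T1R1 it was 254, 252 and 265 CPM untreated and 259.8, 253 and 259.8 CPM treated. In 4T1R2 it was 243, 251 and 255 CPM untreated and 256, 261 and 246 CPM treated. The 17 samples thus lay between 243 and 276 CPM, and treated and untreated libraries overlapped in both resistant populations. The log2 change after 17-DMAG was -0.07 ± 0.04 (SE) in 4T1 (adjusted p = 0.138), 0.00 ± 0.03 in 4T1R1 (adjusted p = 0.96) and 0.03 ± 0.03 in 4T1R2 (adjusted p = 0.678). Scaled by total counts alone, the change in 4T1 was -0.18 with an adjusted p of 2.34e-04.

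Egln3 (chromosome 12, 54178981-54203860), a prolyl hydroxylase that is itself a HIF-1 target, fell furthest of the members called in 4T1 cells. It stood at 74.9, 71.8 and 75.5 CPM in untreated 4T1 and at 35.4 and 34.7 CPM after 17-DMAG. In 4T1R1 it went from 92.1, 100.3 and 94.2 CPM to 68.5, 69.6 and 71.1 CPM. In 4T1R2 it went from 101.8, 103 and 105.9 CPM to 90.4, 88.3 and 84.2 CPM. Every treated library lay below every untreated library of its own population, and the treated 4T1 samples were the lowest of all. The log2 change was -1.08 ± 0.05 in 4T1 (adjusted p = 3.33e-21), -0.45 ± 0.04 in 4T1R1 (adjusted p = 1.48e-11) and -0.24 ± 0.04 in 4T1R2 (adjusted p = 3.23e-05). Egln1, the main HIF-1α hydroxylase, fell by 0.14 in 4T1 and by 0.17 in 4T1R1 on the log2 scale and read 0.01 in 4T1R2 (adjusted p = 0.9). Per kilobase of exon, the level of Egln3 was 1.05 ± 0.0199 times that of Egln1 in untreated 4T1 and 0.546 ± 0.00755 after 17-DMAG (SD, n = 3 and 2), and in 4T1R2 the ratio went from 1.79 ± 0.00853 to 1.50 ± 0.0764 (n = 3 each).

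Among the other HIF-1 targets, Kdm3a and Bnip3 fell in each population. Kdm3a, a histone H3 lysine demethylase that requires oxygen, stood at 58.8, 55.01 and 55.5 CPM in untreated 4T1 and 33.1 and 34.7 CPM treated. It stood at 70.3, 67.2 and 71.9 CPM against 59.6, 58.0 and 55.8 CPM in 4T1R1, and at 82.5, 78.6 and 87.2 CPM against 69.9, 69.2 and 66.7 CPM in 4T1R2. Treated and untreated libraries did not overlap in any population. The log2 change was -0.74 ± 0.05 in 4T1 (adjusted p = 1.41e-14), -0.27 ± 0.05 in 4T1R1 (adjusted p = 1.24e-05) and -0.27 ± 0.04 in 4T1R2 (adjusted p = 2.91e-05). Bnip3, a mitochondrial receptor for mitophagy, went from 13.2, 11.2 and 14.1 CPM to 8.26 and 7.29 CPM in 4T1, from 18.9, 15.3 and 18.5 CPM to 13.6, 13.7 and 12.8 CPM in 4T1R1 and from 20.2, 18.2 and 17.8 CPM to 16.3, 15.5 and 14.04 CPM in 4T1R2. These groups did not overlap within a population either, and the log2 changes were -0.71 ± 0.11, -0.40 ± 0.09 and -0.29 ± 0.09 (adjusted p = 1.49e-06, 7.53e-04 and 0.0244). Its relative Bnip3l fell in 4T1 by 0.19 and had values of -0.11 in 4T1R1 and -0.07 in 4T1R2 that did not pass.

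P4ha1 and P4ha2, catalytic subunits of the prolyl 4-hydroxylase that modifies collagen, rose in each population. P4ha2 (chromosome 11, 54100095-54131665) stood at 7.53, 6.18 and 5.86 CPM in untreated 4T1 and 16.5 and 17.5 CPM after 17-DMAG. In 4T1R1 it went from 11.6, 10.0 and 10.6 CPM to 20.3, 19.2 and 21.4 CPM, and in 4T1R2 from 9.57, 9.77 and 11.4 CPM to 17.4, 14.6 and 14.1 CPM. No treated library reached down to an untreated one of its population. The increase was 2.60-fold in 4T1, 1.90-fold in 4T1R1 and 1.50-fold in 4T1R2, as log2 changes 1.38 ± 0.11, 0.92 ± 0.09 and 0.58 ± 0.10 (adjusted p = 8.06e-14, 2.72e-10 and 3.14e-05). P4ha1 went from 63.8, 61.2 and 62.0 CPM to 105.1 and 100.8 CPM in 4T1, from 68.0, 65.9 and 69.0 CPM to 91.8, 90.5 and 89.1 CPM in 4T1R1, and from 75.6, 77.6 and 81.3 CPM to 96.0, 93.9 and 95.4 CPM in 4T1R2. Its groups did not overlap either, and the log2 changes were 0.73 ± 0.04, 0.42 ± 0.04 and 0.28 ± 0.04 (adjusted p = 1.07e-17, 3.93e-11 and 1.11e-06). P4ha1 remained the more abundant subunit per kilobase of exon, with a ratio to P4ha2 of 14.6 ± 1.63 in untreated and 9.20 ± 0.643 in treated 4T1.

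**Figure D2:**
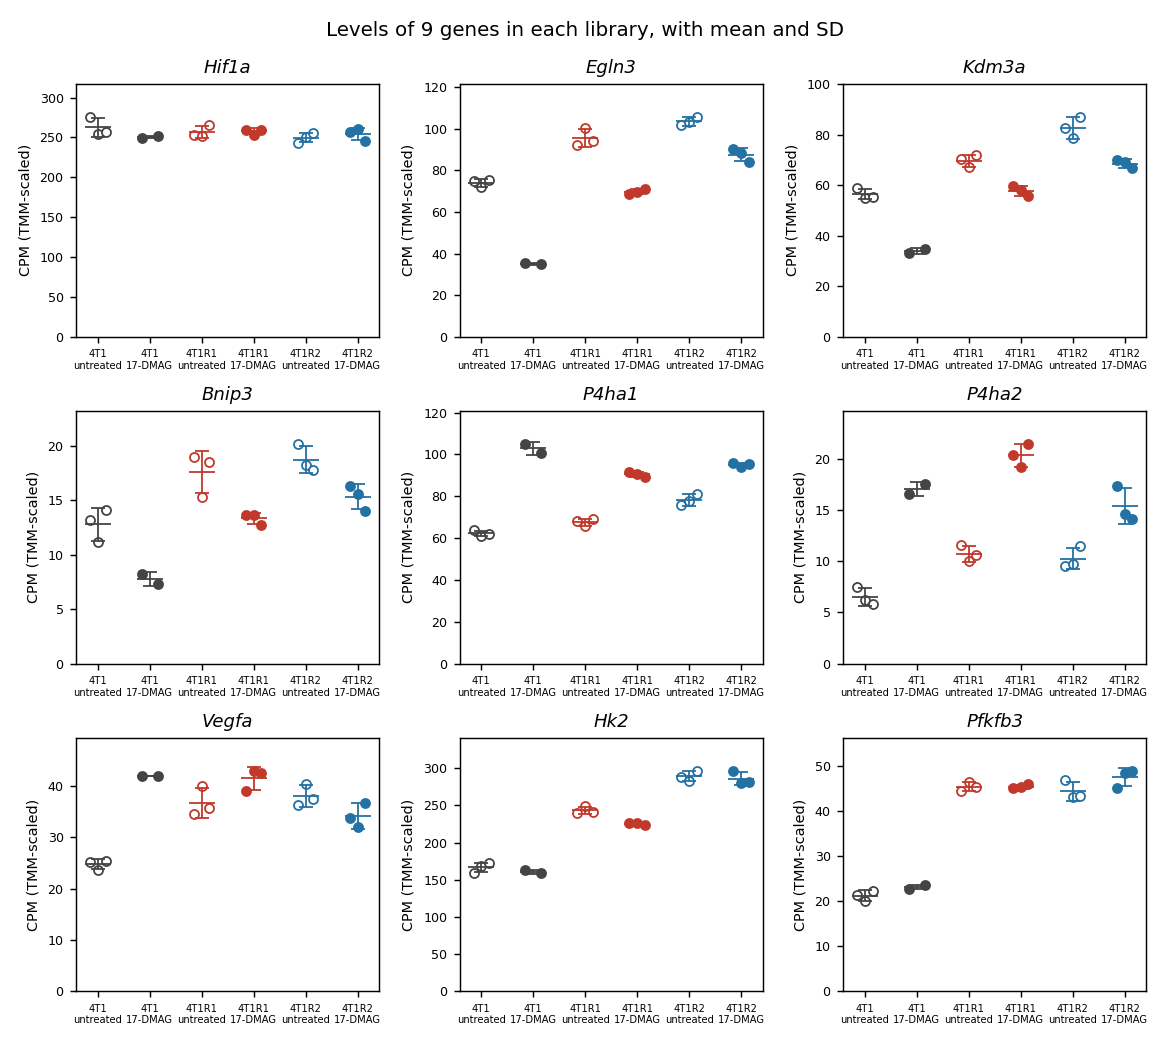
CPM of 9 members in every sample, on linear axes that start at 0, with the mean (horizontal line) and SD (bar) of each group. Open points are untreated and filled points treated, in 4T1 (grey, 2 treated samples), 4T1R1 (red) and 4T1R2 (blue). Hif1a is level across all groups, Egln3 drops from 74.9, 71.8 and 75.5 to 35.4 and 34.7 CPM in 4T1, and Hk2 and Pfkfb3 differ between populations more than with treatment.

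Vegfa rose in 4T1 and 4T1R1, and Ndrg1 rose in 4T1 and fell in both resistant populations. Vegfa, the main angiogenic growth factor, stood at 25.2, 23.6 and 25.4 CPM in untreated 4T1 and 41.98 and 41.96 CPM after 17-DMAG, a log2 change of 0.76 ± 0.07 (adjusted p = 4.75e-12). In 4T1R1 it read 34.5, 40.1 and 35.7 CPM untreated and 39.0, 42.9 and 42.5 CPM treated, in groups that overlapped, with a change of 0.17 ± 0.06 (adjusted p = 0.0278). In 4T1R2 it read 36.3, 40.4 and 37.5 CPM untreated and 33.7, 31.9 and 36.8 CPM treated, with a value of -0.15 ± 0.06 that did not pass (adjusted p = 0.107). Treated libraries thus read 39.0 to 42.9 CPM in 4T1 and 4T1R1 and 31.9 to 36.8 CPM in 4T1R2. Ndrg1, a stress-responsive gene known to be raised by hypoxia, went up from 79.6, 79.9 and 79.1 CPM to 95.3 CPM in both treated 4T1 samples, down from 96.7, 104.1 and 101.9 CPM to 83.3, 84.2 and 84.8 CPM in 4T1R1 and down from 61.7, 66.4 and 65.5 CPM to 56.4, 55.6 and 55.3 CPM in 4T1R2. The groups did not overlap within a population, and the log2 changes were 0.26 ± 0.04, -0.26 ± 0.04 and -0.21 ± 0.04 (adjusted p = 3.71e-06, 1.11e-06 and 4.00e-04).

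The remaining HIF-1 targets were of low abundance. Ankrd37, an ankyrin repeat gene used as a hypoxia marker, stood at 2.68, 2.24 and 1.39 CPM in untreated and 1.19 and 1.22 CPM in treated 4T1, and its 26 to 80 counts per library were the fewest of any member called after 17-DMAG. Its log2 change of -0.79 ± 0.29 in 4T1 (adjusted p = 0.0306) no longer passed without untreated replicate 1 (-0.58, adjusted p = 0.17), untreated replicate 2 (-0.74, 0.0714), or treated replicate 2 (-0.68, 0.0746) or 3 (-0.81, 0.111). The same holds for its change of -0.72 ± 0.28 in 4T1R1, from 1.70, 1.25 and 1.86 CPM to 0.96, 0.888 and 1.07 CPM (adjusted p = 0.0479), which lost its call in 5 of the 6 fits that each left out a library of 4T1R1, with adjusted p from 0.0682 to 0.166. Reads of Ankrd37 can also come from Ufsp2 and Lrp2bp, which overlap it on the opposite strand, since the strand setting of the counting was not given. Adm, which encodes the vasodilator adrenomedullin, and Car9, a carbonic anhydrase at the cell surface and a common hypoxia marker, did not pass after 17-DMAG in any population, with Adm at 12 to 74 and Car9 at 56 to 145 counts per library.

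The enzymes of glycolysis themselves changed little after 17-DMAG. Of the 19 genes from glucose entry to lactate export, 1 rose and 7 fell in 4T1, none rose and 14 fell in 4T1R1, and none rose and 2 fell in 4T1R2. Of all genes tested 18% fell in 4T1, 14.3% in 4T1R1 and 4.35% in 4T1R2. The 14 that fell in 4T1R1 did so by 0.11 to 0.31 on the log2 scale. They were Slc2a1, the main glucose transporter of proliferating cells, both hexokinases, Gpi1, the 3 phosphofructokinases, Aldoa, Tpi1, Gapdh, Pgk1, Pgam1, the pyruvate kinase Pkm and the lactate dehydrogenase Ldha. In 4T1 the largest called change among these enzymes was that of Aldoc, the aldolase of brain, which went from 6.25, 5.32 and 4.82 CPM to 3.84 and 3.21 CPM (-0.62 ± 0.17, adjusted p = 0.00285). Without treated replicate 3 that change was -0.51 with an adjusted p of 0.0624.

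Hexokinase 1, the constitutive hexokinase, was with Pfkl the only gene of the path that fell in all 3 populations. Hk1 went from 99.0, 103.9 and 98.3 CPM to 71.3 and 73.8 CPM in 4T1, from 120.2, 129 and 127 CPM to 111, 110.3 and 107.6 CPM in 4T1R1, and from 149, 147 and 150.4 CPM to 138, 134 and 139.8 CPM in 4T1R2. Treated libraries lay below untreated ones in each population, with log2 changes of -0.47 ± 0.04, -0.20 ± 0.04 and -0.11 ± 0.04 (adjusted p = 2.69e-12, 4.69e-05 and 0.0265). Hk2, the inducible hexokinase, moved little and overlapped in 4T1 (-0.05 ± 0.04, adjusted p = 0.252) and in 4T1R2 (-0.02 ± 0.03, adjusted p = 0.803), while in 4T1R1 it fell by 0.11. Per kilobase of exon, Hk2 was therefore 2.37 ± 0.108 times Hk1 in untreated and 3.17 ± 0.131 times Hk1 in treated 4T1. Pfkl, which held 74.5 ± 0.67% of the phosphofructokinase RNA per kilobase in untreated 4T1, fell by 0.28, 0.31 and 0.11 on the log2 scale in 4T1, 4T1R1 and 4T1R2. Pfkm and Pfkp are overlapped on the opposite strand by Senp1 and Pitrm1, with 50039 and 91500 counts over all libraries, so with the strand setting not given their own counts and the share of Pfkl are uncertain. The hexokinase ratio and the share of Pfkl also depend on the exon lengths used. These were 8.53 kb for Hk1, 5.97 for Hk2, 6.68 for Pfkl, 3.34 for Pfkm and 13.4 for Pfkp. Tpi1, Gapdh, Aldoa and Hk1 are overlapped by Spsb2, Iffo1, Fam57b and Hk1os, with 42 to 2513 counts over all libraries.

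Gapdh, which is often used as a reference gene, stood at 989, 1063 and 1033 CPM in untreated 4T1 and 1081 and 1107 CPM treated, a log2 change of 0.09 ± 0.03 (adjusted p = 0.0294). Scaled by total counts alone this change was -0.03, and with DESeq2 it missed the threshold (adjusted p = 0.0579). It also missed it without untreated replicate 1 (adjusted p = 0.169), untreated replicate 3 (0.0524) or treated replicate 3 (0.262), so its direction after 17-DMAG in 4T1 was not settled. Tpi1, triosephosphate isomerase, went from 341, 366 and 359 CPM to 314 and 319 CPM in 4T1 and from 442, 432 and 414 CPM to 362, 373 and 364 CPM in 4T1R1, with log2 changes of -0.17 ± 0.03 and -0.23 ± 0.03 (adjusted p = 6.43e-05 and 5.74e-08). In 4T1R2 its change of -0.07 ± 0.03 did not pass (adjusted p = 0.0905). Pdk1, the kinase that keeps pyruvate out of the mitochondria and a classic HIF-1 target, passed in none of the 9 comparisons, with log2 values between -0.10 and 0.05.

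Among the 32 members, Eno1 and Slc16a3 had few counts. Eno1, the main enolase, was listed with only 4 to 16 counts per library, while Eno1b, a near-identical intronless copy on chromosome 18 noticed after the values were seen, was listed with 4567 to 8703. How reads that match both were assigned is not given in the sources used here, so the values of Eno1 do not stand for the enolase message. Slc16a3, the lactate exporter MCT4, had 10 to 40 counts per library, while Slc16a1, which encodes the transporter MCT1, had 6521 to 16686.

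Whether the untreated resistant populations differed from 4T1 in these genes was asked next, and here most members were higher. In untreated 4T1R2, 23 members were higher and 2 lower than in untreated 4T1, and in untreated 4T1R1 20 were higher and 2 lower (1 without its replicate 1 or 2). Over all genes tested 25.6% were higher and 26.9% lower in 4T1R2, and 25.2% higher and 27.5% lower in 4T1R1. The median log2 difference of the members was 0.41 in 4T1R2 and 0.25 in 4T1R1, against 0.01 over all genes in each. Of the 19 genes from glucose entry to lactate export, 14 were higher in 4T1R2 and 13 in 4T1R1, by 0.15 to 1.07 and by 0.09 to 1.10, and none was lower. The members lower than in 4T1 were Egln1 and Bnip3l in 4T1R1 and Egln1 and Ndrg1 in 4T1R2. Only 4 of the 20 higher members of 4T1R1 and 11 of the 23 of 4T1R2 differed by at least 0.5 on the log2 scale. Of all 13507 genes tested, 2167 in 4T1R1 and 2184 in 4T1R2 were called past this cut in either direction. The comparisons of the resistant populations with 4T1 share the untreated 4T1 libraries, which also enter the response of 4T1. The epithelial marker sum given above was lower in the same 2 populations, and its part in these differences was not tested.

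**Figure D3:**
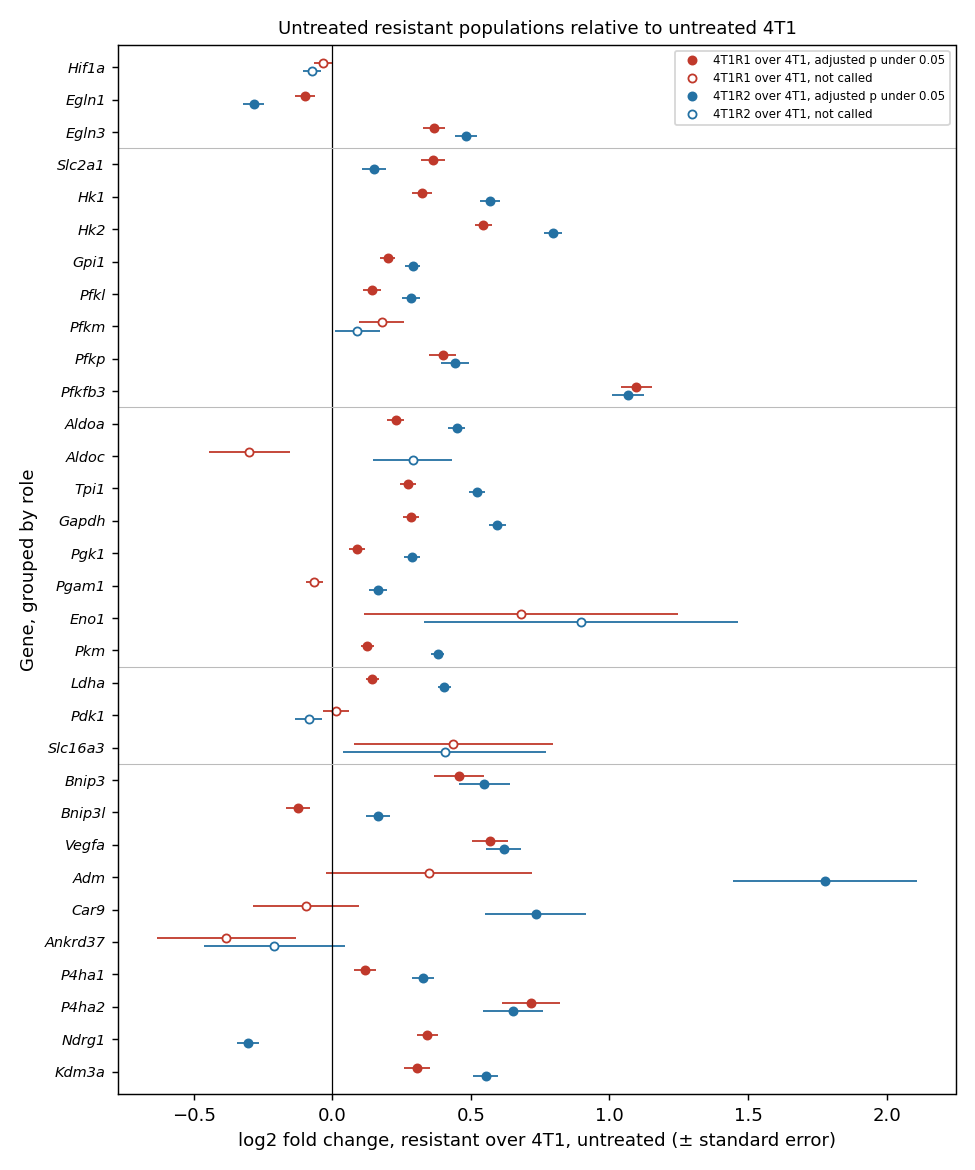
Log2 fold change of the 32 members in untreated 4T1R1 (red) and 4T1R2 (blue) relative to untreated 4T1, with bars of 1 standard error and grey lines between roles. Filled points passed an adjusted p of 0.05. Pfkfb3 lies near 1.1 in both populations, most enzymes lie between 0 and 0.8, and Adm is high in 4T1R2 (1.78) but not called in 4T1R1 (0.35).

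The largest difference among the enzymes was in Pfkfb3, whose product makes fructose 2,6-bisphosphate, the strongest activator of phosphofructokinase. Pfkfb3 (chromosome 2, 11471433-11554077) stood at 21.4, 19.9 and 22.3 CPM in untreated 4T1, at 44.4, 46.3 and 45.3 CPM in 4T1R1 and at 46.9, 43.0 and 43.3 CPM in 4T1R2. Both resistant populations lay wholly above 4T1 and overlapped each other. The ratio to 4T1 was 2.14 in 4T1R1 (log2 1.10 ± 0.06, adjusted p = 5.24e-20) and 2.10 in 4T1R2 (log2 1.07 ± 0.06, adjusted p = 1.88e-19). Pfkfb3 did not pass after 17-DMAG in any population, at 22.7 and 23.4 CPM in treated 4T1, 45.1 to 45.9 in treated 4T1R1 and 45.2 to 48.9 in treated 4T1R2.

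Hk2 formed a series from 4T1 over 4T1R1 to 4T1R2. It stood at 159.6, 169 and 172 CPM in untreated 4T1, 240.0, 249 and 242 CPM in 4T1R1 and 288, 283 and 296 CPM in 4T1R2, and no group overlapped another. Hk2 was higher than in 4T1 by 0.55 ± 0.03 in 4T1R1 and 0.80 ± 0.03 in 4T1R2 (log2, adjusted p = 2.54e-18 and 1.02e-23), and higher in 4T1R2 than in 4T1R1 by 0.25 ± 0.03 (adjusted p = 1.42e-08). Hk1 followed the same order, with 0.32 ± 0.04 and 0.57 ± 0.04 over 4T1 (adjusted p = 4.82e-10 and 4.30e-17). So did Gapdh, at 1244, 1303 and 1214 CPM in 4T1R1 and 1628, 1533 and 1503 CPM in 4T1R2, with differences from 4T1 of 0.29 ± 0.03 and 0.60 ± 0.03 (adjusted p = 5.82e-11 and 1.18e-20). Tpi1 differed from 4T1 by 0.27 ± 0.03 and 0.52 ± 0.03 (adjusted p = 1.15e-10 and 4.93e-19). Per kilobase of exon the most abundant member was Pkm, at 541 ± 15.3 CPM in untreated 4T1, 590.3 ± 14.8 CPM in 4T1R1 and 704 ± 17 CPM in 4T1R2 (each n = 3, SD). Slc2a1 broke the order, being higher in 4T1R1 (107, 112 and 109 CPM) than in 4T1R2 (91.8, 97.6 and 93.9 CPM) and lowest in 4T1 (80.5, 84.3 and 89.9 CPM), with neighbours that did not overlap and a difference of -0.21 ± 0.04 between 4T1R2 and 4T1R1 (adjusted p = 6.68e-05).

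Most of the other targets were also higher in the untreated resistant populations. P4ha2 exceeded 4T1 by 0.72 ± 0.11 in 4T1R1 and 0.65 ± 0.11 in 4T1R2 (adjusted p = 2.25e-07 and 2.11e-06), and Vegfa by 0.57 ± 0.06 and 0.62 ± 0.06 (adjusted p = 5.61e-10 and 8.59e-11). Kdm3a was higher by 0.31 ± 0.05 and 0.55 ± 0.05, Bnip3 by 0.46 ± 0.09 and 0.55 ± 0.09 and Egln3 by 0.37 ± 0.04 and 0.48 ± 0.04, all past the threshold. P4ha1 was higher by 0.12 ± 0.04 and 0.33 ± 0.04. Genes that fell after 17-DMAG and genes that rose after it were thus both among those higher before treatment.

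Several targets differed between 4T1R2 and 4T1R1, a contrast that cannot be told apart from the separate library numbering of 4T1R1. In this comparison 18 members were higher in 4T1R2 and 3 lower, against 19.7% and 19% of all genes tested, and the members' median was 0.19 (log2). Adm stood at 1.74, 1.6 and 2.04 CPM in untreated 4T1R2, at 0.913, 0.472 and 0.6 in 4T1R1 and at 0.602, 0.587 and 0.378 in 4T1. The 4T1R2 libraries were above all others, with log2 differences of 1.78 ± 0.33 from 4T1 and 1.43 ± 0.32 from 4T1R1 (adjusted p = 1.70e-05 and 3.32e-04). Car9 behaved alike, at 3.72, 4.51 and 4.61 CPM in 4T1R2 against 1.98, 2.19 and 3.00 CPM in 4T1R1 and 2.58, 2.38 and 2.71 CPM in 4T1, with differences of 0.73 ± 0.18 from 4T1 and 0.83 ± 0.18 from 4T1R1 (adjusted p = 7.25e-04 and 2.98e-04). Aldoc was higher in 4T1R2 (6.16, 7.16 and 6.76 CPM) than in 4T1R1 (4.06, 3.91 and 5.31 CPM) by 0.59 ± 0.14 (adjusted p = 0.00101), and neither population differed from 4T1 past the threshold. Ndrg1 went the other way, being lower in 4T1R2 than in 4T1R1 by 0.65 ± 0.04 and than in 4T1 by 0.30 ± 0.04 (adjusted p = 6.48e-17 and 2.77e-08), and higher in 4T1R1 than in 4T1 by 0.34 ± 0.04 (adjusted p = 5.63e-10).

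Whether the responses to 17-DMAG differed between populations was tested as the difference of the log2 changes. Against 4T1, 3 members had a higher and 10 a lower change in 4T1R1, and 5 a higher and 5 a lower change in 4T1R2, where 9.21% and 9.05% of all genes tested were called in 4T1R1 and 9.66% and 8.1% in 4T1R2. Scaled by total counts alone these counts became 7 and 2 in 4T1R1 and 10 and 4 in 4T1R2, while the median of all genes moved to 0.15 and 0.07, so the direction of the balance rested on the scaling. Between the resistant populations 5 members were called higher and 1 lower in 4T1R2, against 1.21% and 0.918% of all genes, and 0 and 2 when scaled by total counts. For none of these comparisons was the share of all genes called under total-count scaling counted. The 5 became 3 without untreated 4T1R1 replicate 2, and 2 without treated 4T1R1 replicate 1 or 3, untreated 4T1R2 replicate 2 or 3, or treated 4T1R2 replicate 1 or 3. The 1 became 0 without untreated 4T1R1 replicate 1 or 3, treated 4T1R1 replicate 2 or 3, untreated 4T1R2 replicate 2 or 3, or treated 4T1R2 replicate 1 or 2. Without treated 4T1 replicate 3, the 5 members with a higher change in 4T1R2 than in 4T1 became 3.

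The differences of Egln3, Kdm3a, Hk1, Vegfa and Ndrg1 kept direction and call in both resistant populations when scaled by total counts. The fall of Egln3 was smaller than in 4T1 by 0.62 ± 0.06 in 4T1R1 and 0.84 ± 0.06 in 4T1R2 (adjusted p = 7.11e-10 and 1.07e-13). That of Kdm3a was smaller by 0.47 ± 0.07 and 0.46 ± 0.07 (adjusted p = 3.91e-06 and 2.62e-06), and that of Hk1 by 0.27 ± 0.05 and 0.36 ± 0.05 (adjusted p = 2.64e-04 and 3.31e-06). On the side of the genes that rose, the Vegfa response differed from that of 4T1 by -0.59 ± 0.09 in 4T1R1 and -0.92 ± 0.09 in 4T1R2 (adjusted p = 6.24e-06 and 3.34e-10), and the Ndrg1 response by -0.52 ± 0.06 and -0.47 ± 0.06 (adjusted p = 3.60e-09 and 6.35e-08). In 4T1R2 the responses of P4ha2 and P4ha1 also differed from those in 4T1, by -0.80 ± 0.15 and -0.44 ± 0.06 (adjusted p = 6.74e-05 and 1.32e-07). In 4T1R1 their differences of -0.46 ± 0.14 and -0.31 ± 0.06 passed (adjusted p = 0.0206 and 1.26e-04) but not when scaled by total counts (adjusted p = 0.108 and 0.0502), and that of P4ha2 also lost its call without any 1 of untreated 4T1 replicate 3 (0.0815), treated 4T1 replicate 3 (0.1), untreated 4T1R1 replicate 1 (0.0658) or treated 4T1R1 replicate 2 (0.0513).

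Genes of the same pathways outside the 32 were counted in lists of the oxygen-sensing machinery, other HIF-1 targets and other glycolytic genes. Of 23 tested genes of the HIF pathway machinery 7 rose and 3 fell after 17-DMAG in 4T1, 4 rose and 6 fell in 4T1R1, and 4 rose and none fell in 4T1R2, where 18.4% and 18%, 13.9% and 14.3%, and 6.17% and 4.35% of all genes tested did so. The HSP90 genes rose most, Hsp90aa1 by 2.00 in 4T1, 1.40 in 4T1R1 and 0.88 in 4T1R2 (log2), followed in 4T1 by Hsp90ab1 (0.96) and Siah2 (0.91), a ubiquitin ligase that acts on EGLN proteins. Arnt, the partner of HIF-1α, fell by 0.29 in 4T1 and by 0.20 in 4T1R1, and was higher in untreated 4T1R1 and 4T1R2 than in 4T1, by 0.27 in each.

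Of 34 tested HIF-1 targets outside the 32, 10 rose and 9 fell after 17-DMAG in 4T1, 9 rose and 10 fell in 4T1R1, and 5 rose and 5 fell in 4T1R2. Over all genes tested the shares were 18.4% and 18%, 13.9% and 14.3%, and 6.17% and 4.35%. In 4T1 the genes of this list that rose most were Stc2, a secreted glycoprotein, from 3.85, 3.90 and 4.47 CPM to 13.0 and 13.5 CPM (1.70 ± 0.12, adjusted p = 3.74e-15), and Hmox1, heme oxygenase 1 (1.27 ± 0.08, adjusted p = 3.21e-16). Ccng2, an unconventional cyclin, fell in each population, by 0.80 in 4T1, 0.32 in 4T1R1 and 0.41 in 4T1R2. Before treatment 22 of the 34 were higher in 4T1R2 than in 4T1 and 7 lower, and 16 were higher in 4T1R1 and 5 lower, against 25.6% and 26.9% of all genes in 4T1R2 and 25.2% and 27.5% in 4T1R1. Ddit4, an inhibitor of mTORC1, was higher by 1.40 in 4T1R2 and 0.68 in 4T1R1, at 39.2, 40.9 and 34.3 CPM and at 21.1, 25.2 and 23.7 CPM against 14.7, 14.4 and 14.4 CPM in 4T1.

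Of 24 tested glycolytic genes outside the 32, 6 were higher and 8 lower in 4T1R2 than in 4T1, and 6 higher and 7 lower in 4T1R1, with medians of -0.01 and 0.11 (log2). These counts lay near the shares over all genes, 25.6% and 26.9% in 4T1R2 and 25.2% and 27.5% in 4T1R1. Pdp2, a phosphatase that activates pyruvate dehydrogenase, was lower by 1.19 in 4T1R1 and 0.85 in 4T1R2, and Eno2, the neuronal enolase, was higher by 0.68 and 0.72. After 17-DMAG in 4T1, 4 of the 24 rose and 3 fell, against 18.4% and 18% of all genes, among them Pfkfb4, a relative of Pfkfb3 (0.69 ± 0.08, adjusted p = 5.17e-09), and Bpgm, which makes 2,3-bisphosphoglycerate (-0.85 ± 0.11, adjusted p = 4.23e-08). Tigar, a fructose bisphosphatase, rose in each population, by 0.48, 0.41 and 0.35. Of 14 genes of the pentose phosphate path and of pyruvate entry, 7 rose and none fell in 4T1, 1 rose and 2 fell in 4T1R1, and 2 rose and 1 fell in 4T1R2, against 18.4% and 18%, 13.9% and 14.3%, and 6.17% and 4.35% of all genes. Pgd, which encodes the phosphogluconate dehydrogenase of that path, rose by 0.38 in 4T1.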

How the data were processed

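Whole-number counts of reads per gene symbol in 18 libraries were used as the authors deposited them, without normalization. Total RNA had been depleted of ribosomal RNA, made into stranded libraries and aligned by the authors to mm10/GRCm38 with STAR, and reads were counted with featureCounts (the submitters' processing notes name bcl2fastq 2.20 and Subread 1.6.2). Neither the strand setting nor the handling of multi-mapped reads is given in the sources used here. Among counts from 1 to 12, 65.6% to 70.8% were even per library, so a count appears to be a read and not a fragment. The rRNA precursor Rn45s held 9.54% to 15.6% of a library.

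The 32 members and all gene lists were chosen with earlier results of these data known. Groups came from the sample titles. Replicates 1 and 2 of treated 4T1 were averaged, leaving 17 samples. A single edgeR 4.0.16 fit (R 4.3.3) of 6 group means, with filterByExpr and TMM scaling, gave quasi-likelihood tests of 9 contrasts, each adjusted by Benjamini-Hochberg over 13507 genes at a threshold of 0.05. The common biological coefficient of variation was 0.0376, so that small differences pass, and P-values measure only the spread between these cultures. CPM are counts per 1000000 of the TMM-scaled library, and values per kilobase use the union of all annotated exons. Ratios between genes per kilobase thus depend on the annotation, while the fold change of a ratio of 2 genes between groups does not. A change in the share of Pfkl, a part of a sum, does depend on it. Per-library values were given for Hif1a, Gapdh and every member called with an absolute log2 fold change of at least 0.5 in a comparison of 2 groups. From other lists at most the 3 largest called changes in each direction were named, among genes with at least 100 mean normalized counts in the higher group. The value of Arnt in untreated 4T1R2 against 4T1 was given outside this rule. Slc2a1, the Eno1b counts and the Slc16a1 counts were added after their values were seen. Positions are GRCm38. The code was tested on simulated counts. Figures were drawn with matplotlib 3.10.9. Alternatives were RLE scaling, total-count scaling, no filter, at least 10 counts in every library, DESeq2 1.42.0 (the study's tool), only the groups compared, 18 separate libraries, a replicate block, no Rn45s, a minimum log2 change of 0.5 and leaving out each library. Protein sequences were not analysed here.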

Additional observations from a re-analysis of the deposited data

Results flagged for a closer look

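The responses below differed between populations in edgeR's quasi-likelihood test of the difference itself, with an adjusted p under 0.05 over all genes tested. Values are the log2 change after 17-DMAG in 1 population minus that in another. Samples were not examined for their distance from their group, since every group had at most 3 libraries.

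Between 4T1R1 and 4T1 the difference was above 0 for Egln3 (0.62), Kdm3a (0.47) and Hk1 (0.27), genes that fell in both populations and fell further in 4T1. It was below 0 for Vegfa (-0.59), P4ha2 (-0.46) and P4ha1 (-0.31), which rose in both and rose further in 4T1, and for Ndrg1 (-0.52), which rose in 4T1 and fell in 4T1R1. It was also below 0 for Slc2a1 (-0.28) and for 5 enzymes of the path: Aldoa (-0.21), Gapdh (-0.20), Gpi1 (-0.19), Pgk1 (-0.16) and Pkm (-0.15). With libraries scaled by total counts alone, the differences of Slc2a1 (-0.13, adjusted p = 0.139), Aldoa (-0.07, 0.336), Gapdh (-0.05, 0.467), Gpi1 (-0.04, 0.578), Pgk1 (-0.01, 0.92) and Pkm (-0.00165, 0.982) no longer passed.

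Between 4T1R2 and 4T1 the difference was above 0 for Egln3 (0.84), Kdm3a (0.46), Bnip3 (0.42), Hk1 (0.36) and Pfkl (0.17), and below 0 for Vegfa (-0.92), P4ha2 (-0.80), Ndrg1 (-0.47), P4ha1 (-0.44) and Gapdh (-0.12). That of Bnip3 lost its call in 7 of the fits that each left out a library of these populations (adjusted p from 0.0595 to 0.192), and that of Gapdh lost it in 6 (0.0621 to 0.241), with DESeq2 (0.0648), with total-count scaling (0.416) and with at least 10 counts in every library (0.0504). That of Pfkl lost it without treated 4T1 replicate 3 (0.0874).

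Between 4T1R2 and 4T1R1 the difference was above 0 for Slc2a1 (0.23), Egln3 (0.21), Pfkl (0.21), Tpi1 (0.15) and Ldha (0.14), and below 0 for Vegfa (-0.33). With total-count scaling the 5 positive differences no longer passed, with adjusted p from 0.114 for Pfkl to 0.367 for Ldha. With a library left out, the differences of Vegfa, Egln3, Tpi1, Slc2a1 and Ldha lost their calls in 8, 7, 7, 6 and 5 fits (highest adjusted p from 0.0607 for Ldha to 0.119 for Vegfa), and that of Pfkl in none of the 18.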

How the results depend on the processing

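RLE scaling, a fit without Rn45s, DESeq2 and a fit of 18 separate libraries kept every count of members called within 1.5 times its reported value. Requiring an absolute log2 change of 0.5 left, as members higher and lower, 3 and 5 after 17-DMAG in 4T1, 1 and 1 in 4T1R1, 1 and 0 in 4T1R2, 4 and 0 in untreated 4T1R1 against 4T1, 11 and 0 in 4T1R2 against 4T1, and 3 and 1 in 4T1R2 against 4T1R1. For the differences of response it left 1 and 2 (4T1R1 against 4T1), 1 and 2 (4T1R2 against 4T1) and 0 and 0 (4T1R2 against 4T1R1). Of all 13507 genes tested, in either direction and in the same orders, it left 1207, 370 and 125 after 17-DMAG. It left 2167, 2184 and 1052 of them in the untreated comparisons, and 538, 654 and 42 for the differences of response. With total-count scaling 13 members fell after 17-DMAG in 4T1R2, 0 were lower in untreated 4T1R1 than in 4T1, and the differences of response had 7 higher and 2 lower, 10 higher, and 0 higher and 2 lower in the same order. The shares of all genes called with that scaling were not counted. Without the filter, or with only the groups compared, 1 member was lower in untreated 4T1R1 than in 4T1. Values that changed sign were near 0: with total-count scaling Gapdh in 4T1 (-0.0265) and Hif1a in 4T1R2 (-0.0194), and with a library left out Hif1a in 4T1R1 (from -0.0107 without untreated replicate 2 to 0.027 without untreated replicate 3, and below 0 in 4 such fits) and Hif1a in untreated 4T1R1 against 4T1 (from -0.0555 without untreated 4T1R1 replicate 3 to 0.00535 without untreated 4T1 replicate 1). Hif1a in untreated 4T1R2 against 4T1 passed the threshold without the filter (-0.08, adjusted p = 0.0472) and in 6 fits with a library left out (-0.07 to -0.10).

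With each library left out in turn, members higher and lower after 17-DMAG numbered 4 to 6 and 9 to 13 in 4T1, 2 to 3 and 17 to 21 in 4T1R1, and 2 and 3 to 7 in 4T1R2. In the untreated comparisons they numbered 19 to 21 and 1 to 3 (4T1R1 against 4T1), 23 to 24 and 2 to 3 (4T1R2 against 4T1), and 16 to 18 and 3 to 4 (4T1R2 against 4T1R1). In the differences of response they numbered 3 to 4 and 9 to 11, 3 to 6 and 4 to 6, and 2 to 6 and 0 to 1. The counts that moved by over 1.5 times were the 6 members lower in 4T1R2 (3 without its untreated replicate 1 or treated replicate 2), the 2 lower in untreated 4T1R1 (1 without its replicate 1 or 2), the 5 with a higher response in 4T1R2 than in 4T1 (3 without treated 4T1 replicate 3) and the 5 with a higher response in 4T1R2 than in 4T1R1. The last fell to 2 or 3 in 7 such fits. The single lower response there, that of Vegfa, lost its call in 8 such fits. Where this left 1 treated 4T1 sample, that sample was assumed to vary like the other groups.

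Libraries with the same replicate number did not deviate together from their group means (r from -0.02 to 0.04 over 9 pairs, 4 of 9 best matched by their own number). Deviations from means of 3 libraries cannot exclude a pairing, so whether the replicates were paired was not settled. With the replicate block and 18 separate libraries no call among the genes named changed, and the members higher and lower after 17-DMAG numbered 5 and 13 in 4T1, 3 and 20 in 4T1R1 and 2 and 6 in 4T1R2.

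Depth limits Eno1, Slc16a3, Adm and Ankrd37, at 4 to 80 counts per library, and n = 2 in treated 4T1 limits every result that uses it. The exposure time is given differently by the sources. The separate library numbering of 4T1R1 cannot be told apart from its population.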
